A study of Drosophila melanogaster with 18 samples.

Results

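The genes described here are the chemosensory receptors of Drosophila melanogaster, chosen by symbol: Orco and every gene named Or, Gr or Ir with a number and a letter. They came to 186 of the 17972 genes of the Illumina table, with 60 in the Or family, 60 in the Gr family and 66 in the Ir family, of which 6 Ir genes were annotated as pseudogenes. Of the 186, 32 (17.2%) reached 0.5 FPKM (fragments per kilobase of gene, corrected for library size) in at least 3 of the 9 Illumina libraries, against 13418 (74.7%) of all 17972 genes. By family, 12 Or, 11 Gr and 9 Ir genes reached that level. The same gene identifiers gave 180 rows in the Nanopore table, and the 6 without a row were the Ir pseudogenes.

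RNA came from whole adult flies of 3 genotypes, with 3 libraries per genotype on an Illumina short-read instrument and 3 on a Nanopore long-read instrument, so 18 libraries in all. Driver controls carried GR23E10-gal4;+, dec2WT flies carried GR23E10-gal4;UAS-dec2WT, and dec2P384R flies carried GR23E10-gal4;UAS-dec2P384R. Every group therefore carried the GR23E10 driver, which is known for neurons of the dorsal fan-shaped body of the brain, and Gal4 made in those cells switches on the UAS transgene. Flies were held at 25 °C with 12 h of light per day and collected 3 h after lights-on, and each extraction pooled about 70 animals. The labels name no sex, age or batch, and the controls had no UAS transgene, so the transgene and the genetic background it came with cannot be told apart.

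Odorant receptors (Or) are ion channels in the dendrites of olfactory neurons of the antenna and maxillary palp, where each tuned receptor works with the shared subunit Orco. Gustatory receptors (Gr) act in taste hairs and pegs of the mouthparts, legs, wings and pharynx, where groups of them serve sugars, bitter compounds and, in the antenna, carbon dioxide. Ionotropic receptors (Ir), relatives of ionotropic glutamate receptors, sense acids, amines, salt, temperature and humidity together with the co-receptors Ir25a, Ir8a and Ir76b. Most of these genes are active in a small number of sensory neurons, so their RNA is a small share of whole-fly RNA.

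The deposited FPKM values could be turned back into whole reads, and the libraries held 18057117 to 28293197 such reads. Nanopore libraries held 1922380 to 4659601 estimated counts. Scaled to library size, receptors took 71.3 to 98.9 RPM on Illumina and 44.1 to 67.7 CPM on Nanopore. A count of 0 in a library allows up to 3 reads, or 0.106 to 0.166 RPM on Illumina and 0.644 to 1.56 CPM on Nanopore, as counting error only. Markers of testis and male glands summed to 903 to 1323 FPKM per library and markers of ovary and female fat body to 5.97 to 11.7 FPKM, and none of the 5 and 4 markers tested on Illumina passed in any comparison.

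Most receptors lay close to the limit of detection. The 186 genes together held 16445 reads over the 9 Illumina libraries, 6311 of them from Or, 6052 from Ir and 4082 from Gr genes. Of the 186, 126 had at least 10 reads, 43 had 1 to 9 and 17 had none. The median of the members' mean levels was 0.088 FPKM. At a minimum of 0.1 FPKM in 3 libraries 98 genes were detected, and at 1 FPKM 12 were. Just inside the 0.5 FPKM limit, Gr59a, Gr8a and Ir85a had 0.509, 0.507 and 0.506 FPKM in their third-highest library. Just outside it, Ir68a, Gr39a and Ir100a had 0.495, 0.48 and 0.47 FPKM. The genes with the most reads among those that missed the limit were Gr39a with 286, Ir40a with 179, Ir68a with 167, Gr28b with 150 and Ir100a with 147.

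**Figure D1:**
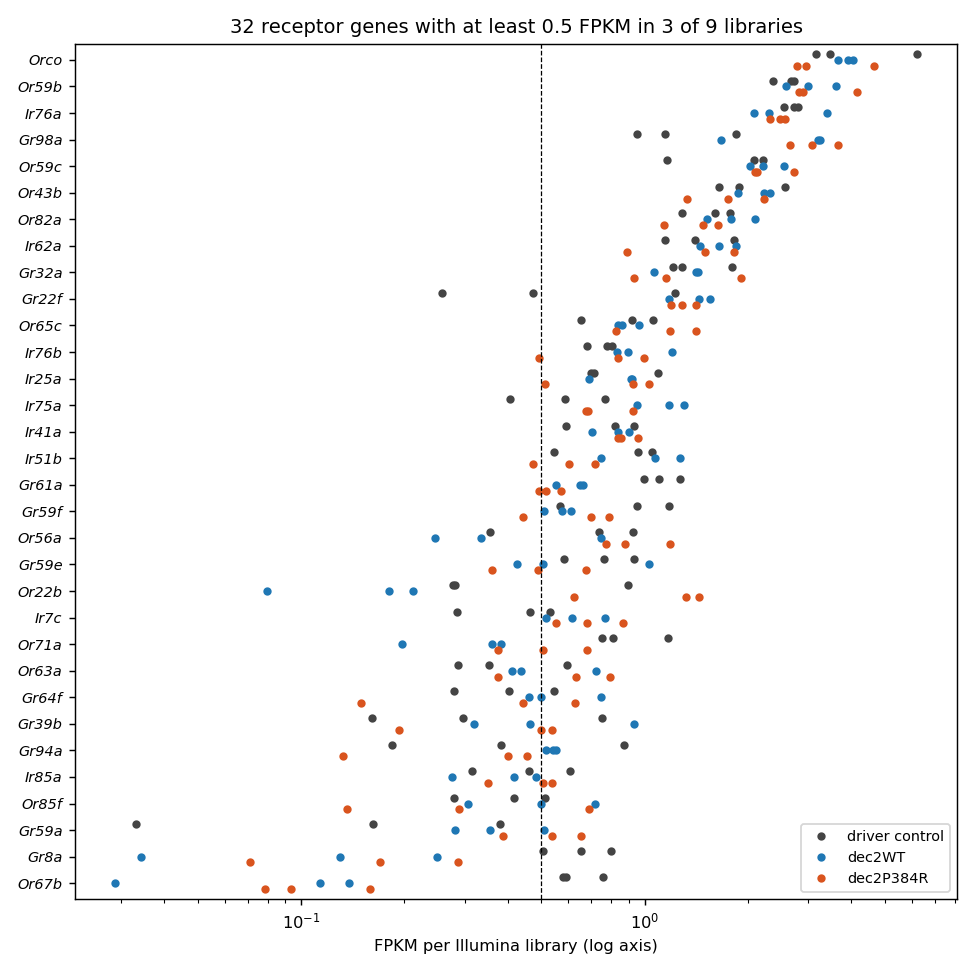
FPKM of the 32 receptor genes with at least 0.5 FPKM in 3 of the 9 Illumina libraries, on a log axis, 1 point per library coloured by genotype, ordered by mean level; the dashed line marks 0.5 FPKM. Orco lies highest, at 2.79 to 6.23 FPKM, while the 2 lowest genes, Gr8a and Or67b, cross the line in driver control libraries alone.

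The 12 receptors with the highest mean level were 6 Or, 3 Ir and 3 Gr genes. Orco, the odorant co-receptor, led with a mean of 3.87 FPKM. It measured 6.23, 3.46 and 3.16 FPKM in the controls, 3.66, 4.05 and 3.91 FPKM in dec2WT, and 4.65, 2.79 and 2.95 FPKM in dec2P384R. Control replicate 1 and dec2P384R replicate 1 were its highest libraries, and the genotypes overlapped. Or59b, a receptor for small acetate esters, followed with 2.98 FPKM, and Ir76a, an amine receptor that works with Ir76b, with 2.58 FPKM. Next came Gr98a with 2.38, Or59c of the maxillary palp with 2.13 and Or43b with 1.98 FPKM. Or82a, a geranyl acetate receptor, had 1.59, Ir62a 1.50 and Gr32a, a bitter and male pheromone receptor, 1.36 FPKM. Gr22f with 1.11, Or65c with 0.968 and Ir76b with 0.835 FPKM closed the group, and the values of neighbours in this order overlapped between libraries. Orco, Ir76a and Gr98a also had the most Nanopore counts among these 12, with 151, 102 and 81.0 over 9 libraries.

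Of the 4 co-receptors, 3 reached the limit. Ir25a, the broad ionotropic co-receptor, had a mean of 0.834 FPKM and lay between 0.513 and 1.10 FPKM. Ir76b lay between 0.492 and 1.21 FPKM. Ir8a, the co-receptor of acid sensing, had 0.132 FPKM from 77 reads and was listed at 0 in the Nanopore libraries.

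Receptors of known ligand mostly fell short of the limit. Both carbon dioxide receptors did, Gr21a with a mean of 0.0883 and Gr63a with 0.229 FPKM. Of 9 sugar receptors, the glucose receptor Gr61a with 0.757 FPKM and the co-expressed Gr64f with 0.462 FPKM reached it, whereas Gr64a had 0.245, the fructose receptor Gr43a 0.182 and the trehalose receptor Gr5a 0.0409 FPKM. Among 6 bitter receptors Gr32a alone reached it, with Gr39a at 0.39, Gr66a at 0.335, Gr89a at 0.172, Gr33a at 0.167 and Gr93a at 0.0733 FPKM. None of the 5 temperature and humidity receptors did. The moist and dry air receptors Ir68a and Ir40a had 0.34 and 0.30 FPKM, Gr28b had 0.178, Ir93a 0.153 and the cool receptor Ir21a 0.0148 FPKM. The pheromone receptors Or47b, Or67d and Or65a had means of 0.269, 0.143 and 0.0882 FPKM. Of 5 odorant receptors with known ligands, the geosmin receptor Or56a reached the limit with 0.687 FPKM, while Or42b, Or22a, Or83c and Or85a had 0.263, 0.237, 0.235 and 0.0344 FPKM. Of 4 acid and amine receptors, the acetic acid receptor Ir75a reached it with 0.831 FPKM, and Ir64a, Ir92a and Ir84a had 0.136, 0.0972 and 0.0628 FPKM.

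The platforms listed different genes as absent. Over the 180 genes with a row in both tables, Spearman's rho between Illumina reads and Nanopore counts was 0.691, given as a description across genes that are not independent. On Nanopore, 148 of 180 had at least 1 estimated count in all, 42 had at least 10 and 30 were listed at 0. Of the 32 genes that reached the Illumina limit, 25 (78.1%) had at least 10 Nanopore counts. Gr64b, Gr64c, Gr64d and Gr64e, sugar receptors of a gene cluster on arm 3L, had 0 Illumina reads in every library. Their Nanopore estimates over 9 libraries were 0.734, 9.27, 6.84 and 25.8. Ir21a had 7 Illumina reads and 28.7 Nanopore counts, and Or45b had 0 reads and 20.3 counts.

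These genes share exons with other genes in the Ensembl BDGP6.54 annotation, whose coordinates equalled the deposited ones for 186 of 186 receptors. Gr64b and Gr64c are annotated over the same exon bases (100%), and Gr64d and Gr64e over 97.3% and 99.1% of theirs. Or10a and Gr10a, from different families, also share all exon bases, and Or45b, Or46a and Or83a lie wholly in exons of a gene on the opposite strand. In all, 16 receptors shared at least 50% of their exon bases with another gene. Of these 16, 10 had no Illumina read, 13 had fewer than 10 reads and 0 reached 0.5 FPKM, against 7, 47 and 32 of the other 170. On Nanopore, 11 of the 15 with a row had at least 5 counts, against 69 of 165, and 6 of the 10 without an Illumina read did. How the counting treated shared exons is not given in the sources used here, and its part in these zeros was not tested. A level of 0 FPKM for these 10 genes is therefore printed as listed and not read as absence.

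**Figure D2:**
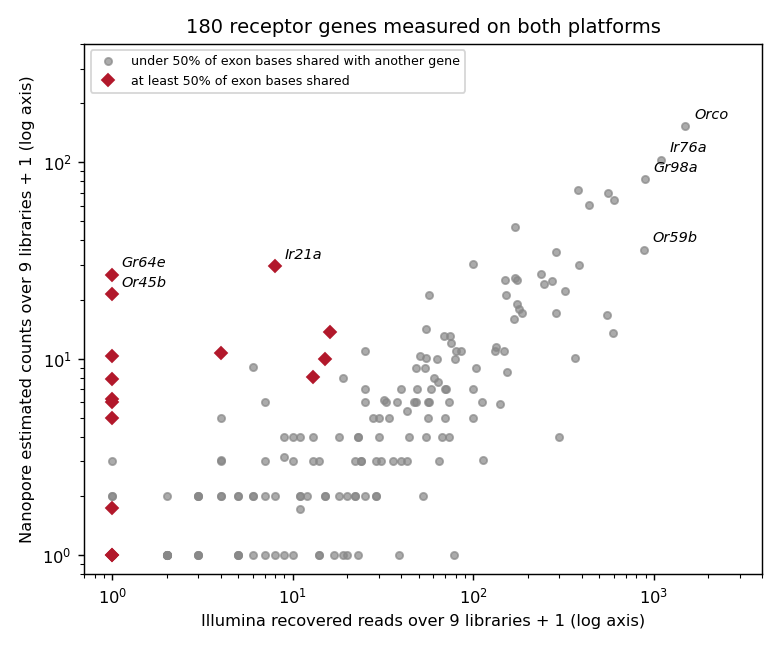
Illumina reads recovered from FPKM (x axis) against Nanopore estimated counts (y axis), each summed over 9 libraries plus 1 and on log axes, for 180 receptor genes. Red diamonds are genes that share at least 50% of exon bases with another gene; they lie at 0 to 15 Illumina reads, with Nanopore counts up to 28.7.

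On Illumina, summed receptor levels overlapped between the genotypes. The sum over 186 genes was 53.9, 45.1 and 45.2 FPKM in controls, 51.3, 47.1 and 51.6 FPKM in dec2WT, and 54.0, 45.1 and 48.1 FPKM in dec2P384R. The group means were 48.1 ± 5.0, 50.0 ± 2.5 and 49.1 ± 4.5 FPKM (SD, n = 3). Or sums were 21.8 ± 3.34, 21.5 ± 2.01 and 22.3 ± 1.62 FPKM, and Gr sums were 12.7 ± 1.29, 13.1 ± 1.32 and 13.1 ± 1.86 FPKM, in the same order. Ir sums were 14.1, 13.4 and 13.1 FPKM in controls, 16.1, 15.0 and 15.1 FPKM in dec2WT and 15.2, 11.8 and 14.0 FPKM in dec2P384R. All dec2WT values lay above all control values for the Ir family, while dec2P384R overlapped both. On Nanopore, scaled to library size, receptors summed to 50.5, 49.8 and 44.1 CPM in controls, 48.7, 58.0 and 61.9 CPM in dec2WT, and 60.8, 67.7 and 55.4 CPM in dec2P384R. There every dec2P384R library lay above every control, which the Illumina sums did not show, and dec2WT overlapped both.

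The first comparison, dec2P384R against driver control, asks how flies with the mutant transgene differ from flies with the driver alone. Among the 32 receptors at 0.5 FPKM, 1 passed the test, the odorant receptor gene Or67b, which fell. limma was fitted to log2(FPKM + 0.5) over all 13418 genes, with Benjamini-Hochberg adjustment and a threshold of 0.05, and called 2.8% of genes. The 3 libraries of each group did not overlap for 8 of 32, against 16.0% of all genes. But these 8 include Or67b and Gr8a, which reached 0.5 FPKM only through the control libraries. Or71a, also among the 8, would have missed that limit without the control libraries. P-values weigh a difference against the spread between libraries of a genotype, for which limma also draws on other genes. The labels call these libraries biological replicates. In bulk RNA, fewer cells of a type and less RNA per cell cannot be told apart.

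A read-based test reached further down. edgeR's quasi-likelihood test on the recovered reads of genes with at least 10 reads in total took in 126 receptors and called 3 of them, Or67b and Gr61a lower and Gr98a higher, where 2.75% of all 15111 genes were called. At an unadjusted p under 0.05 there were 19 of 126 (15.1%), against 13.9% of all genes. The median log2 fold change was 0.015, against 0.016 over all genes, with 64 receptors higher and 62 lower. On Nanopore, edgeR tested 3 receptors, Orco, Gr98a and Ir76a, and called 0, where 0.474% of 11393 genes passed. Orco alone had an unadjusted p under 0.05 there, 0.0493, with a log2 fold change of 0.83 ± 0.38 (1.78-fold) and an adjusted p of 0.451. Its Nanopore counts were 20, 14 and 9 in controls and 10, 33 and 14 in dec2P384R, from libraries of unequal depth. On Illumina the sign was opposite, with a log2(FPKM + 0.5) difference of -0.25 ± 0.23 and an adjusted p of 0.694 in limma. With every gene of at least 10 Nanopore counts after rounding, 43 receptors were tested and 0 were called, where 25 of 12743 genes were called higher and 27 lower. An unadjusted p under 0.05 was found for 4 of 43 (9.30%), against 10.7% of all genes.

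Or67b, an odorant receptor gene (FBgn0036019, chromosome arm 3L, 9627316 to 9629193, minus strand), was low in every transgenic library. It had 0.58, 0.589 and 0.756 FPKM in controls, 0.0288, 0.114 and 0.138 FPKM in dec2WT, and 0.0937, 0.159 and 0.0786 FPKM in dec2P384R. The reads behind these were 17, 22 and 23 in controls, 1, 3 and 4 in dec2WT, and 3, 4 and 2 in dec2P384R, so neither transgenic group overlapped the controls. On the log2(FPKM + 0.5) scale the difference from control was -0.90 ± 0.20 (SE) in dec2P384R, with an adjusted p of 0.0386 in limma, and -0.95 ± 0.20 in dec2WT, with an adjusted p of 0.031. On recovered reads edgeR gave log2 fold changes of -2.50 ± 0.53 and -2.77 ± 0.54, or 5.66-fold and 6.84-fold lower, with adjusted p of 0.0188 and 0.0107. Or67b reached 0.5 FPKM through the control libraries alone, so a gene at that limit had to differ to be tested, which does not hold for the limit of 10 reads in total. The Nanopore counts were too few to separate the groups, at 1, 1 and 2 in controls, 3, 1 and 1 in dec2WT, and 0, 1 and 0 in dec2P384R.

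The limma call of Or67b in dec2P384R was lost with the replicate number as a block, at an adjusted p of 0.0535, in a fit of the 6 compared libraries alone, at 0.0651, and with a pseudocount of 0.1, at 0.087. It was also lost without dec2WT replicate 2 or 3 or any dec2P384R replicate, at adjusted p of 0.0561 to 0.0985. In dec2WT it was lost with a pseudocount of 0.1, at 0.066, and without any dec2WT replicate, at adjusted p of 0.0774 to 0.107. Without any control replicate the gene missed the 0.5 FPKM limit and was tested in neither comparison. CG8336, on the opposite strand, overlaps 9.18% of Or67b's exon bases. It measured 25.2 ± 1.38 FPKM in controls, 25.0 ± 1.05 FPKM in dec2WT and 26.7 ± 1.65 FPKM in dec2P384R (SD, n = 3). Where counting ignores strand, reads of such a pair cannot be told apart.

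Gr98a (FBgn0039520, chromosome arm 3R, 27487927 to 27489968, plus strand) was the most abundant gustatory receptor. It measured 1.84, 0.95 and 1.14 FPKM in controls, 3.21, 1.67 and 3.25 FPKM in dec2WT, and 3.08, 2.65 and 3.65 FPKM in dec2P384R. Every dec2P384R library lay above every control, while dec2WT replicate 2 lay below the highest control. The log2(FPKM + 0.5) difference of dec2P384R from control was 1.02 ± 0.24 with an adjusted p of 0.0531 in limma, just over the threshold, and 0.0129 with the replicate number as a block. It was also under the threshold without control replicate 1, at 0.0368, and without dec2WT replicate 2, at 0.024. edgeR on recovered reads called it, with a log2 fold change of 1.27 ± 0.28 (2.41-fold) and an adjusted p of 0.0235. For dec2WT against control the edgeR value was 1.07 ± 0.28 with an adjusted p of 0.0625, and limma gave 0.81 ± 0.24 with an adjusted p of 0.144. That limma p was 0.0389 with the replicate number as a block and 0.0444 without dec2WT replicate 2, and DESeq2 gave 0.0153. Gr22f, at 1.23, 0.257 and 0.473 FPKM in controls, 1.55, 1.18 and 1.44 FPKM in dec2WT and 1.20, 1.28 and 1.41 FPKM in dec2P384R, passed limma when control replicate 1 was left out, with adjusted p of 0.0222 in dec2P384R and 0.0172 in dec2WT, against 0.22 and 0.201 with it.

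Nanopore counts of Gr98a were 10.4, 7 and 4 in controls, 11, 10 and 12.4 in dec2WT, and 8, 9.23 and 9 in dec2P384R, from libraries of unequal depth. edgeR gave log2 fold changes of 0.79 ± 0.41 in dec2P384R and 0.60 ± 0.39 in dec2WT, with adjusted p of 0.507 and 0.675.

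Gr61a, a glucose receptor of sweet taste neurons (chromosome arm 3L, 841451 to 843701, plus strand), was lower in both transgenic genotypes. It had 0.996, 1.27 and 1.10 FPKM in controls, 0.651, 0.664 and 0.552 FPKM in dec2WT, and 0.57, 0.492 and 0.516 FPKM in dec2P384R, and the controls overlapped neither group. The log2(FPKM + 0.5) difference in dec2P384R was -0.66 ± 0.16 with an adjusted p of 0.0551 in limma, and the edgeR log2 fold change was -1.08 ± 0.26 with an adjusted p of 0.0362. In dec2WT the values were -0.53 ± 0.16 with an adjusted p of 0.142 in limma and -0.84 ± 0.25 with 0.114 in edgeR. The other sugar receptor that was tested in limma, Gr64f, had no adjusted p under 0.05 and its groups overlapped.

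Gr8a, a receptor for the plant toxin L-canavanine (X chromosome, 9227137 to 9228827, plus strand), also stood apart. It measured 0.801, 0.507 and 0.653 FPKM in controls, 0.13, 0.0343 and 0.248 FPKM in dec2WT, and 0.169, 0.287 and 0.0709 FPKM in dec2P384R. The log2(FPKM + 0.5) differences were -0.78 ± 0.22 in dec2P384R, with an adjusted p of 0.116 in limma, and -0.86 ± 0.22 in dec2WT, with 0.0876. On recovered reads with edgeR's filterByExpr limit, which took in 45 receptors, edgeR called it lower in dec2WT, with a log2 fold change of -2.18 ± 0.53 and an adjusted p of 0.0451, and DESeq2 did so with 0.0275. With genes of at least 10 reads edgeR gave 0.0582. Like Or67b, Gr8a passed both the 0.5 FPKM limit and the filterByExpr limit through control libraries alone. Such a gene had to differ to be tested there, which does not hold for the limit of 10 reads in total. The other receptors with the largest differences and no overlap in dec2P384R were Gr59a and Ir7c, a salt receptor subunit. Gr59a was higher by 0.59 ± 0.24 and Ir7c by 0.37 ± 0.19 on the log2(FPKM + 0.5) scale, with adjusted p of 0.28 and 0.422 in limma.

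**Figure D3:**
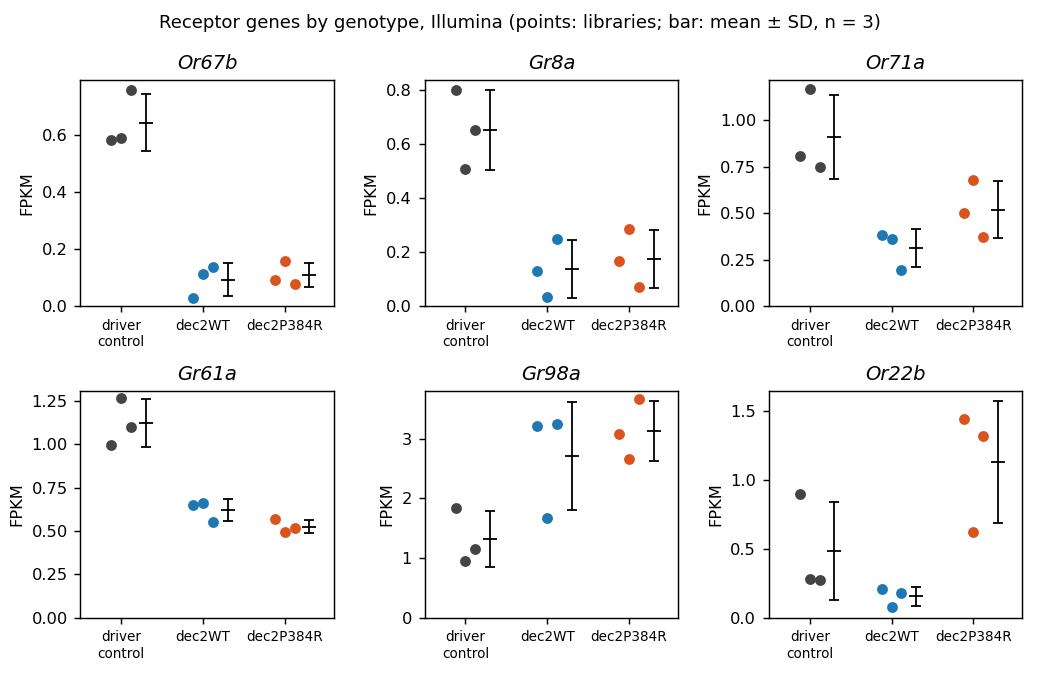
FPKM of 6 receptor genes in each Illumina library by genotype, with the group mean and SD beside the points (n = 3); each panel starts at 0 on its own scale. Or67b, Gr8a, Or71a and Gr61a are highest in all 3 driver control libraries, Gr98a is lowest there on average, and Or22b is highest in dec2P384R.

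For dec2WT against driver control, the wild-type transgene against the driver alone, Or67b again was the 1 of 32 receptors called lower by limma and 0 were called higher, where 2.61% of all genes were called. The libraries did not overlap for 7 of 32, again with Or67b and Gr8a among them, against 20.0% of all genes. Or71a, also among the 7, would have missed the 0.5 FPKM limit without the control libraries. Both comparisons with the driver control share its 3 libraries, so a value that sits low or high in those libraries moves both differences.

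On recovered reads, edgeR called 3 of 126 receptors in dec2WT against control, Ir60b and Ir51a higher and Or67b lower, where 2.65% of all genes were called. With the filterByExpr limit of edgeR in place of 10 reads, the same test also called 3 receptors, but these were Or67b, Gr8a and Or71a, all lower. The share of all genes called at that limit is not given here. Or67b and Gr8a passed that limit through the control libraries alone. Over the 126, 20 (15.9%) had an unadjusted p under 0.05, against 11.2% of all genes, and the median log2 fold change was 0.15, against 0.0065 over all genes, with 71 receptors higher and 55 lower. On Nanopore it called 0 of 3, where 0.799% of all genes passed. With at least 10 counts it called 0 of 43, where 33 of 12743 genes were called higher and 57 lower. Of the 43, 4 (9.30%) had an unadjusted p under 0.05, against 9.95% of all genes.

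Or71a, a maxillary palp receptor for ethylphenols (chromosome arm 3L, 15076907 to 15078447, minus strand), was lower in dec2WT. It measured 0.811, 1.17 and 0.75 FPKM in controls, 0.383, 0.361 and 0.196 FPKM in dec2WT, and 0.505, 0.679 and 0.373 FPKM in dec2P384R. Neither transgenic group overlapped the controls. The log2(FPKM + 0.5) difference was -0.79 ± 0.20 in dec2WT, with an adjusted p of 0.0843 in limma, and -0.47 ± 0.20 in dec2P384R, with 0.332. With the filterByExpr limit, edgeR called it lower in dec2WT, with a log2 fold change of -1.52 ± 0.37 and an adjusted p of 0.0446, and DESeq2 did so with 0.039. With genes of at least 10 reads edgeR gave 0.0512. Nanopore counts were 12.4, 7.86 and 10.6 in controls, 6.42, 2.14 and 0 in dec2WT, and 2.27, 4.08 and 0 in dec2P384R. Over genes with at least 10 Nanopore counts, edgeR gave a log2 fold change of -1.97 ± 0.67 in dec2WT with an adjusted p of 0.288. Or71a lies within Plp on the same strand without sharing exon bases. Plp had 11.4 ± 1.37 FPKM in controls, 8.11 ± 0.0895 FPKM in dec2WT and 8.74 ± 1.90 FPKM in dec2P384R (SD, n = 3), with Nanopore log2 fold changes of -0.69 ± 0.14 in dec2WT (edgeR adjusted p of 0.0414) and -0.54 ± 0.14 in dec2P384R (0.164). The part of Plp transcripts in the Or71a values was not tested.

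Ir60b, a pharyngeal receptor known for sucrose sensing (chromosome arm 2R, 24515685 to 24517458, plus strand), was below 0.5 FPKM. Its reads were 3, 0 and 0 in controls, 15, 7 and 11 in dec2WT, and 10, 4 and 7 in dec2P384R. The summed reads of 33 against 3 gave dec2WT a ratio of 11.8 to control at equal depth, with an exact 95% interval of 3.71 to 60.3 that covers counting error only. The ratio of dec2P384R, from 21 reads, was 8.22 (2.46 to 43.1). edgeR's adjusted p was 0.0448 in dec2WT and 0.121 in dec2P384R. Nanopore had 6 counts in all.

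Ir51a, a pseudogene in the reference strain with no Nanopore row, had 1, 2 and 1 reads in controls, 12, 7 and 8 in dec2WT, and 5, 2 and 3 in dec2P384R. Every dec2WT library had more reads than every library of the other genotypes. edgeR gave dec2WT against control a log2 fold change of 2.74 ± 0.64 with an adjusted p of 0.0347. Ir51a is not among the 5 receptors that the authors' deposited table lists for this comparison. Of the receptors with the largest differences and no overlap in limma, the acetic acid receptor Ir75a was higher in dec2WT by 0.61 ± 0.19 on the log2(FPKM + 0.5) scale with an adjusted p of 0.158, and the co-receptor Ir76b by 0.23 ± 0.19 with 0.805. Ir75a measured 0.586, 0.405 and 0.768 FPKM in controls and 0.949, 1.30 and 1.18 FPKM in dec2WT.

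**Figure D4:**
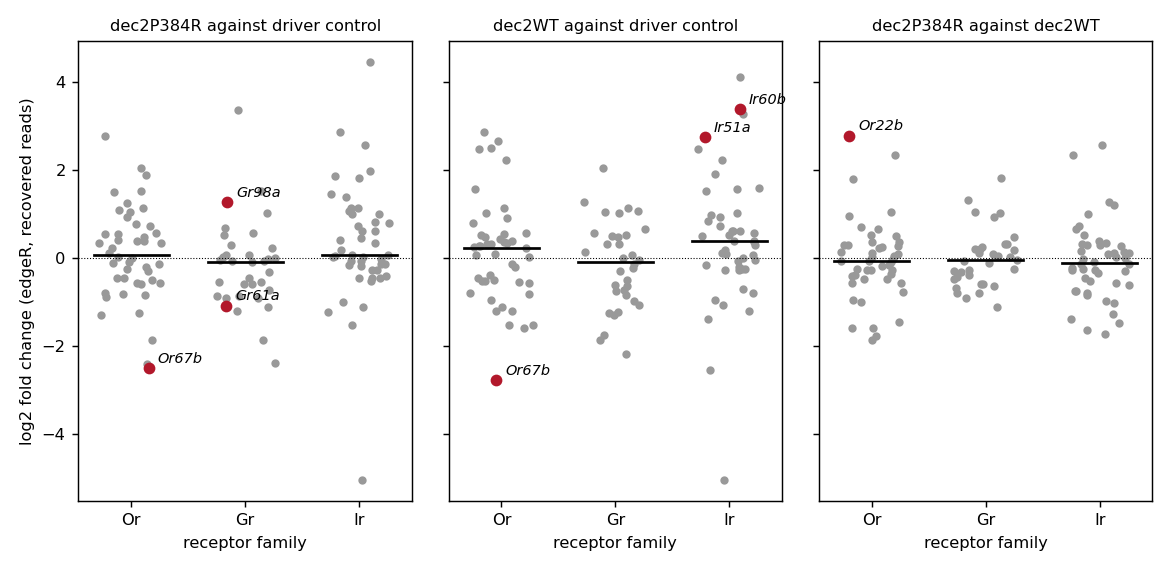
log2 fold change of 126 receptor genes with at least 10 recovered reads, by family, in the 3 comparisons (edgeR quasi-likelihood test; horizontal position within a family is arbitrary). Red points passed an adjusted p of 0.05 and are named; black bars are family medians, which lie between -0.11 and 0.38.

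In dec2P384R against dec2WT, the comparison of mutant with wild-type transgene, limma called 0 of 32 receptors, where 0.783% of all genes were called. At an unadjusted p under 0.05 there were 3 of 32 (9.38%), against 8.07% of all genes, and the libraries did not overlap for 5 of 32, against 13.3% of all genes. Or22b is among the 3 and the 5, and it would have missed the 0.5 FPKM limit without the dec2P384R libraries. The median log2 difference was -0.02, against -0.0014 over all genes. edgeR on recovered reads called 1 of 126, Or22b, where 0.688% of all genes were called. DESeq2 called 1 too, and its share of all genes is not given here. On Nanopore 0 of 3 were called, where 0.132% of all genes passed. With at least 10 counts 0 of 43 were called, where 8 of 12743 genes were called higher and 7 lower. Of the 43, 1 (2.33%) had an unadjusted p under 0.05, against 7.01% of all genes.

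Or22b (FBgn0026397, chromosome arm 2L, 1522697 to 1524257, plus strand) is the neighbour and tandem duplicate of Or22a, the ester receptor of an antennal neuron. It measured 0.895, 0.281 and 0.276 FPKM in controls, 0.211, 0.0796 and 0.181 FPKM in dec2WT, and 1.44, 0.625 and 1.32 FPKM in dec2P384R. Every dec2P384R library lay above every dec2WT library, while control replicate 1 lay above dec2P384R replicate 2. The reads were 25, 10 and 8 in controls, 7, 2 and 5 in dec2WT, and 44, 15 and 32 in dec2P384R. The log2(FPKM + 0.5) difference of dec2P384R from dec2WT was 1.27 ± 0.29, with an adjusted p of 0.0911 in limma, and edgeR's log2 fold change was 2.78 ± 0.57 (6.87-fold), with 0.0393.

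Nanopore counts of Or22b were 1, 2 and 2 in controls, 0, 2 and 1 in dec2WT, and 2, 8 and 6 in dec2P384R. edgeR gave a Nanopore log2 fold change of 2.74 ± 0.78 between the transgenic groups over genes with at least 10 counts, with a p of 0.0037 and an adjusted p of 0.406. Or22a itself measured 0.229, 0.282 and 0.41 FPKM in controls, 0.248, 0.109 and 0.33 FPKM in dec2WT, and 0.18, 0.228 and 0.113 FPKM in dec2P384R, and these groups overlapped. The similarity of the 2 sequences was not measured. How the counting treated reads that match both genes is not given in the sources used here, so the division between Or22a and Or22b was not tested.

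The other 4 receptors with no overlap between the transgenic genotypes had smaller differences. The geosmin receptor Or56a was higher in dec2P384R by 0.64 ± 0.26 on the log2(FPKM + 0.5) scale, with an adjusted p of 0.512 in limma. Ir51b, Ir75a and Gr94a were lower, with differences of -0.47 ± 0.21, -0.38 ± 0.19 and -0.34 ± 0.27 and adjusted p of 0.608, 0.655 and 0.825.

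The authors' deposited table of dec2P384R against driver control, limited to changes of at least 2-fold, lists 2 receptors among 244 genes, Gr98a with a log2 fold change of 1.26 (adjusted p of 0.00107) and Or67b with -2.55 (0.0195). The authors' deposited table of dec2WT against driver control lists 5 among 286 genes, namely Or67b with -2.82, Gr8a with -2.22, Gr98a with 1.06, Or71a with -1.54 and Ir60b with 3.504. The authors' deposited table of dec2P384R against dec2WT lists 1 among 93 genes, Or22b with 2.82 (0.000788).

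No gene listed as working beside the receptors passed the test. Of 19 genes of olfactory support (odorant-binding proteins, membrane proteins and transcription factors of the antenna), 16 were tested on Illumina and 15 on Nanopore, and 0 were called in any of the 3 comparisons. Of 20 genes of taste support, 15 and 11 were tested and 0 were called. On Illumina the median log2 differences of the olfactory list were -0.07, 0.03 and -0.14, in the order of the comparisons above, and those of the taste list -0.15, -0.06 and -0.16. General neuron markers, summing to 53.6 to 69.2 FPKM per library, photoreceptor markers and the markers of olfactory neurons and their support cells had 0 calls as well. Muscle markers had 0 calls. Of the genes listed for midgut, the lysozyme gene LysP fell in both transgenic genotypes against control, on both platforms. The tissue source of LysP was not tested, and in dec2P384R it was the only gene of that list called. alphaTry fell in dec2WT alone, on both platforms. betaTry, also listed for midgut, was not called on either platform, with Illumina log2 differences from control of 0.19 in dec2P384R and -0.03 in dec2WT. Lsp2, a fat body storage protein, rose in both on Illumina. The other fat body markers, Fbp1 and Fbp2, were too low to be tested and had no higher mean in either transgenic genotype. Fbp2 had means of 0.427 FPKM in controls, 0.393 FPKM in dec2WT and 0.226 FPKM in dec2P384R. The part of these differences in the receptor values was not tested.

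Across the 9 Illumina libraries, the genes whose log2(FPKM + 0.5) profile was most like that of Orco were Os-C, Clect27, a10, Jhedup and Obp69a, with Pearson's r of 0.945, 0.942, 0.942, 0.935 and 0.933 among 13417 genes compared. These are the 5 highest of many correlations over 9 libraries and a description only. Os-C and a10 are known as antennal secreted proteins and Obp69a as an odorant-binding protein. All 6 genes were highest in control replicate 1, where a10 had 80.8 FPKM against 42.7 to 47.8 FPKM in the other controls and second highest in dec2P384R replicate 1. Their differences between genotypes had adjusted p of 0.317 to 0.994 in limma.

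**Figure D5:**
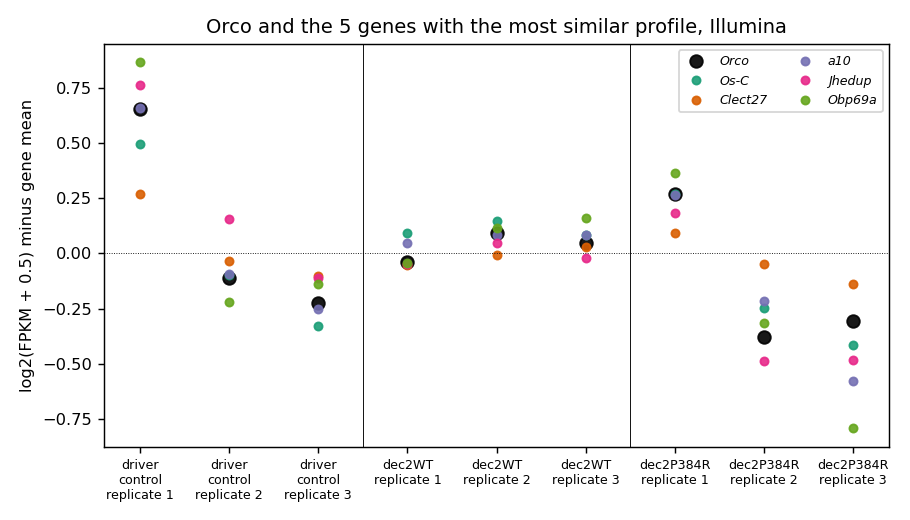
log2(FPKM + 0.5) of Orco and the 5 genes with the most similar profile, minus each gene's mean over 9 Illumina libraries, by library. All 6 are highest in driver control replicate 1 and next highest in dec2P384R replicate 1, and the dec2WT libraries lie close together.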

How the data were processed

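The Illumina libraries (polyA RNA, paired reads of 150 nt) and Nanopore libraries (direct cDNA) were compared by genotype as named in the labels. Tools listed in the submitters' processing notes, with no role, are featureCounts 1.5.0-p3, DESeq2, Salmon, HISAT2 and minimap2; the genome build and strand setting are not given in the sources used here. The authors deposited FPKM values with gene lengths for Illumina, under a name that speaks of counts. They deposited estimated counts for Nanopore, of which 59.9% of values above 0 were not whole. The authors' comparison tables, also deposited, held read counts, log2 fold changes and p-values, limited to changes of at least 2-fold, and were used for the library constants below and where named. The 36 per-library columns of those tables beyond these were not used.

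FPKM values times gene length and a library constant, taken from the deposited counts, gave whole reads for 100% of values within 1e-06. limma 3.58.1 (R 4.3.3, trended empirical Bayes) was fitted to log2(FPKM + 0.5) of genes with at least 0.5 FPKM in 3 of 9 libraries. edgeR 4.0.16 (quasi-likelihood, TMM scaling) was fitted to recovered reads as an alternative and to rounded Nanopore counts, after filterByExpr, as the main Nanopore test. DESeq2 1.42.0 was a further alternative. All fits used all 9 libraries of a platform, tests were two-sided, and p-values were adjusted by Benjamini-Hochberg over all genes tested. The main limma fit and the main Nanopore edgeR fit were tested on simulated data for dec2P384R against driver control, with changes only in genes of higher counts. The edgeR fits to recovered reads and DESeq2 were not tested in that way. SEs of edgeR values were derived from the F statistic.

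Same-numbered Illumina libraries of dec2P384R and control deviated together from their group means, with correlations of 0.256, 0.116 and 0.252 for replicates 1, 2 and 3. Every comparison, on both platforms, was also fitted with the replicate number as a block. The other comparisons had at least 1 correlation at or below 0.1.

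Genes named are the 12 with the highest mean, those past the test, up to 3 higher and 3 lower per comparison with the largest difference among those with no overlap, those of known role, and those nearest the limit. Ir60b and Ir51a are named from the read-based alternative. Members and lists were chosen with earlier results of these data known. No sequences are printed.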

Additional observations from a re-analysis of the deposited data

How the results depend on the processing

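The count of receptors at the 0.5 FPKM limit, 32, rose to 98 at 0.1 FPKM, 126 with at least 10 reads in total and 147 with a read in 3 libraries, and was 12 at 1 FPKM. On Nanopore, 180 genes had a row and 42 had at least 10 estimated counts. Calls rested on few reads and moved with the setting. Shares of all genes called are given above for limma and for edgeR at 10 reads, and not for the other settings. Counts of receptors at those other settings therefore cannot be set against all genes. In dec2P384R against control, 1 receptor was called in limma, 0 with a pseudocount of 0.1, 2 with a filter of 0.1 FPKM, 5 with no filter, 2 after quantile normalization, 3 by edgeR with either filter and 3 by DESeq2. In dec2WT against control, 1 was called, 0 with a pseudocount of 0.1, 2 with a filter of 0.1 FPKM, 5 with no filter, 3 by edgeR with either filter (Or67b in both sets, with Gr8a and Or71a under filterByExpr and Ir60b and Ir51a at 10 reads), 5 by DESeq2 and 2 with the replicate block. In dec2P384R against dec2WT, 0 were called by limma, 1 by edgeR with either filter, 1 by DESeq2 and 1 with the replicate block. With 1 library left out, the counts ranged from 0 to 2 in dec2P384R against control and from 0 to 1 in dec2WT against control. With the block, the receptor called in dec2P384R against control was Gr98a in place of Or67b. On Nanopore all 17 alternatives of each comparison, DESeq2 included, called 0. No named Illumina fold change reversed under the Illumina alternatives. Between platforms, signs differed for more named receptors than are listed here, none of them called on Nanopore. Orco differed in all 3 comparisons. Or67b did in dec2WT against control, with a Nanopore log2 fold change of 0.23, and Or56a in dec2P384R against dec2WT, with -0.07. In dec2WT against control, Or56a had -0.32 on Illumina (limma) and 1.39 on Nanopore, and Ir62a 0.14 and -3.30. In dec2P384R against control, Ir75a had 0.22 and -0.90. The cause of these moves was not tested. Or67b had 79 Illumina reads and 10 Nanopore counts in all.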

Other observations

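Ir7g and Or74a lie outside the naming rules and were picked after their values were seen. Ir7g, on the X chromosome, had 4, 6 and 3 reads in driver controls and 0 reads in each of the 6 transgenic libraries, where a count of 0 allows up to 3 reads. Or74a, an odorant receptor on arm 3L, had 0, 2 and 1 reads in controls, 7, 5 and 5 in dec2WT, and 6, 5 and 8 in dec2P384R. The moist air receptor Ir68a, just under the limit, had 0.571, 0.507 and 0.495 FPKM in controls, 0.193, 0.317 and 0.307 FPKM in dec2WT, and 0.209, 0.221 and 0.241 FPKM in dec2P384R, and the controls overlapped neither group. On Nanopore, Ir7g was listed at 0 in all 9 libraries and Or74a had 2 counts in all. With no filter on low values, limma called Ir7g and Ir68a lower in both comparisons with the control and Or74a higher in dec2P384R. edgeR on genes of at least 10 recovered reads called none of them in either comparison. For Ir7g, Ir68a and Or74a its adjusted p was 0.135, 0.0756 and 0.084 in dec2P384R and 0.139, 0.194 and 0.155 in dec2WT. DESeq2 gave adjusted p of 0.292, 0.109 and 0.147 in dec2P384R.

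Ir62a, which lies within Iml1 on the same strand without shared exon bases, had 4.42, 4 and 5.09 Nanopore counts in controls, 1.00, 0 and 0 in dec2WT, and 0, 1.10 and 0 in dec2P384R. Its genotypes overlapped in the Illumina libraries, at 1.15 to 1.82 FPKM in controls and 1.45 to 1.85 FPKM in dec2WT. Iml1 measured 13.7 ± 0.464 FPKM in controls, 19.1 ± 1.07 FPKM in dec2WT and 18.4 ± 2.36 FPKM in dec2P384R (SD, n = 3).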
